A study of Mus musculus with 12 samples.

Results

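Rpl13a, Nono and Tbp are 3 genes that most cells express and that are commonly used as references in quantitative PCR. They were chosen from the 15 probes of the array that carry 20 spots each and a RefSeq accession, because their mean signal was lower in both AdipoAI groups than in the matching controls. The choice therefore rests on the AdipoAI differences themselves, and these are given as a description with no test. The 3 probes are part of 60694 probes left on the array, and all 3 were among the 33692 probes tested. Total RNA of RAW264.7 cells, a mouse macrophage line established from a tumour, was hybridised to 12 1-colour arrays for mouse lncRNAs and mRNAs, with 3 arrays in each of 4 groups. The DMSO group had the solvent for 24 h. The AdipoAI group had AdipoAI for 24 h. The LPS group had LPS, a bacterial lipopolysaccharide that activates macrophages, for 6 h, and no time before it is given. In the AdipoAI+LPS group, 24 h of AdipoAI came before 6 h of LPS at 100 ng/ml. AdipoAI, a small molecule, is an agonist of the adiponectin receptors. The LPS dose is stated only in this account of the combined treatment, and the same 100 ng/ml was taken for the LPS group. The AdipoAI dose is not in the labels, and whether the LPS cells had solvent first is not stated. No source says that the 3 arrays of a group came from separate cultures, so p-values measure only the spread between these samples, which may be technical.

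The protein products of the 3 genes work at different steps of gene expression. RPL13A is a protein of the large ribosomal subunit and, in macrophages, also part of the GAIT complex, which represses the translation of some inflammatory mRNAs. The introns of its gene hold small nucleolar RNA genes. NONO binds RNA and DNA, is a core protein of paraspeckles, nuclear bodies built on the lncRNA Neat1, and takes part in splicing, transcription and DNA repair. TBP, the TATA-binding protein, is a subunit of TFIID that contacts promoter DNA and serves all nuclear RNA polymerases. A reference gene is used on the assumption that its level does not move with the treatment.

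The promoters of the 3 genes are shown because the genes were grouped by a shared lower level and by no sequence. Each stretch runs from 250 bases before the RefSeq transcription start to 30 bases after it, 5′ to 3′ on the gene's strand, in mouse assembly GRCm38.p6. Rpl13a lies on the minus strand at chr7:45128716-45128995, Nono on the plus strand at chrX:101429401-101429680 and Tbp on the plus strand at chr17:15499638-15499917. Capitals mark matches on either strand to CCAAT (the CCAAT box), GGGCGG (the GC box) and CCGGAA (an ETS factor motif).
Rpl13a: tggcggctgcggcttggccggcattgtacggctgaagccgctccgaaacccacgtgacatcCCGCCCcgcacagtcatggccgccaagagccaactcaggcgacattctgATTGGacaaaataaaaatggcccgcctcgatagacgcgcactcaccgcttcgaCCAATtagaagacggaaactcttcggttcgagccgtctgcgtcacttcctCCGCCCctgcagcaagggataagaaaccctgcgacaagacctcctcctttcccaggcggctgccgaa
Nono: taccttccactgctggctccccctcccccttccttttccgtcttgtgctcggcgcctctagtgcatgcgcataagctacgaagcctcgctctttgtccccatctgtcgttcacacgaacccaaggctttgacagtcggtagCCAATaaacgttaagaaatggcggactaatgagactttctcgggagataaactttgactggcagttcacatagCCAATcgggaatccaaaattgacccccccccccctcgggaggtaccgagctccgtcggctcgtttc
Tbp: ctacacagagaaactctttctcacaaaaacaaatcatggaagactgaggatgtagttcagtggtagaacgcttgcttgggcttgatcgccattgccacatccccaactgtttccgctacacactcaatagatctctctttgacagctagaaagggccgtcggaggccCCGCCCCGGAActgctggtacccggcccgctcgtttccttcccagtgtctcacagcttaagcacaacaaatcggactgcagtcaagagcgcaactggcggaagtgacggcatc
No motif of those searched was in all 3 stretches. CCAAT was in Rpl13a, 87 and 140 bases before the start, and in Nono, 36 and 109 bases before it, while 36.1% of all 32851 RefSeq promoters of the same length held it. GGGCGG was in Rpl13a, 37 and 189 bases before the start, and in Tbp, 83 bases before it, against 34.7% of all promoters. CCGGAA was in Tbp, 78 bases before the start and overlapping the GC box, against 14.2% of all promoters. The searches for TATAAA and for AAGATGGC, the YY1 motif, found no match in the 3 windows, and these letters were in 13.1% and 2.29% of all promoters. The G and C content was 59.6% for Rpl13a, 54.6% for Nono and 52.9% for Tbp, against a median of 52.5% over all promoters. These matches describe letters only, and no binding was measured.

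All values below are log2 signals after quantile normalization over the 12 arrays, and each is the mean over the unflagged spots of the 20 spots of a probe. In RNA pooled from a culture, a lower level in every cell and fewer cells with the transcript cannot be told apart. The probes well above background numbered 29298 on the lowest array and 32969 on the highest, and no spot was saturated. Arrays of the same group had a Pearson r across probes between 0.983 and 0.992, and arrays of different groups between 0.927 and 0.984. The array files pair no other probe with a gene, so the macrophage markers, other probes of the 3 genes, other ribosomal, paraspeckle and TFIID genes were not analysed here. The arrays were read in 2 scans. The first held all DMSO and LPS arrays and AdipoAI replicates 1 and 2, and the second held AdipoAI replicate 3 and all AdipoAI+LPS arrays.

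Rpl13a, the ribosomal protein gene, had a log2 signal of 14.90, 14.92 and 14.94 on the 3 DMSO arrays and of 14.47, 14.46 and 14.56 on the 3 AdipoAI arrays. With LPS alone its log2 signal was 14.84, 14.67 and 14.73, and with AdipoAI before LPS it was 14.38, 14.32 and 14.46. The groups thus formed an order of DMSO, LPS, AdipoAI and AdipoAI+LPS from high to low, and all 6 AdipoAI arrays lay below all 6 others, with a gap of 0.11 between the sets. From low to high, the mean ± SD of 3 arrays was 14.39 ± 0.071 in AdipoAI+LPS, 14.50 ± 0.057 in AdipoAI, 14.75 ± 0.088 in LPS and 14.92 ± 0.020 in DMSO, and the arrays of the lowest 2 groups overlapped. AdipoAI minus DMSO was −0.42 (SE 0.095) on the log2 scale, a level 0.747 times that of DMSO. AdipoAI+LPS minus LPS was −0.36 (SE 0.095), a level 0.779 times that of LPS. In the AdipoAI+LPS group, replicate 3 was the highest array and still lay below every LPS array.

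Nono, the paraspeckle gene, had a log2 signal of 12.47, 12.34 and 12.28 on the DMSO arrays and of 11.77, 11.79 and 11.84 on the AdipoAI arrays. Its log2 signal was 12.26, 12.28 and 11.98 on the LPS arrays and 11.89, 11.89 and 11.80 on the AdipoAI+LPS arrays. The 6 AdipoAI arrays again lay below the 6 others, by a gap of 0.091 set by LPS replicate 3, the lowest array without AdipoAI. The mean ± SD of 3 arrays was 12.36 ± 0.10 in DMSO, 12.17 ± 0.17 in LPS, 11.86 ± 0.051 in AdipoAI+LPS and 11.80 ± 0.039 in AdipoAI. The last 2 groups overlapped, as did DMSO and LPS. AdipoAI minus DMSO was −0.56 (SE 0.11) on the log2 scale, or 0.677 times the DMSO level, and AdipoAI+LPS minus LPS was −0.31 (SE 0.11), or 0.804 times the LPS level.

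Tbp, the general transcription factor gene, had a wide spread between DMSO arrays. Its log2 signal was 9.95, 9.50 and 9.35 on the DMSO arrays and 9.21, 9.17 and 9.24 on the AdipoAI arrays. It was 9.84, 9.72 and 9.56 on the LPS arrays and 9.07, 9.15 and 9.37 on the AdipoAI+LPS arrays. After normalization, each AdipoAI group lay below its own control on every array. The 6 AdipoAI arrays did not lie below all others, since AdipoAI+LPS replicate 3 was 0.023 above DMSO replicate 3. The mean ± SD of 3 arrays was 9.71 ± 0.14 in LPS, 9.60 ± 0.31 in DMSO, 9.21 ± 0.037 in AdipoAI and 9.19 ± 0.16 in AdipoAI+LPS. DMSO overlapped with LPS, and AdipoAI with AdipoAI+LPS. AdipoAI minus DMSO was −0.39 (SE 0.16) on the log2 scale, or 0.762 times the DMSO level. This value depended on DMSO replicate 1, the highest of all arrays for Tbp, and was −0.22 without it. AdipoAI+LPS minus LPS was −0.51 (SE 0.16), or 0.701 times the LPS level.

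**Figure D1:**
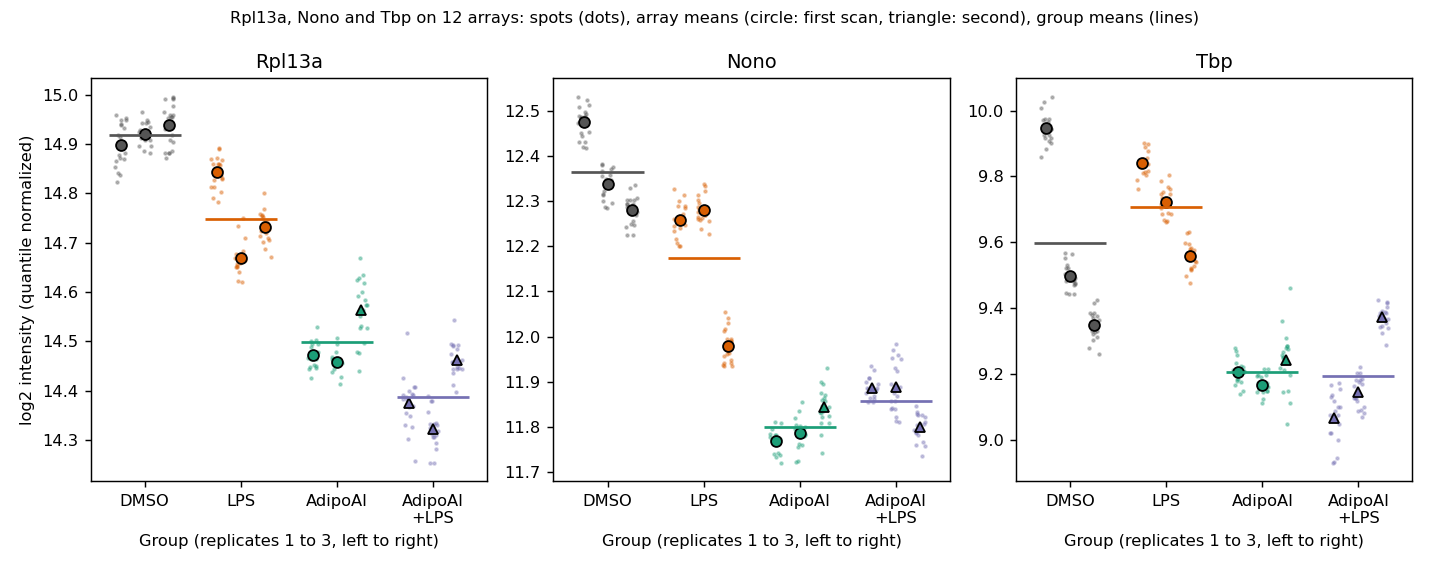
Log2 signal of Rpl13a, Nono and Tbp on each of the 12 arrays after quantile normalization, 1 panel per gene with its own axis; dots are single spots, circles and triangles are array means in the first and the second scan, and lines are group means (n = 3). In every panel the AdipoAI array means lie below those of DMSO and the AdipoAI+LPS array means below those of LPS, and only for Tbp does an array with AdipoAI, at 9.37, lie above an array without it, at 9.35.

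After normalization, all 3 genes thus lay lower on every AdipoAI array than on any DMSO array, and lower on every AdipoAI+LPS array than on any LPS array. Over all probes tested, 19.8% showed the first pattern, 19.6% the second and 8.87% both, and 37% had a lower mean in both AdipoAI groups, which is what the choice of the 3 genes required. Without normalization the first pattern was lost for Tbp, which was 9.33 on AdipoAI replicate 3 and 9.23 on DMSO replicate 3. Nothing is read from the count of 3 of 3, since the same differences chose the genes. The differences were not at the edge of the array: 16.8% of all probes were as low as Rpl13a or lower in AdipoAI vs. DMSO, 10.7% as low as Nono and 18.4% as low as Tbp. In AdipoAI+LPS vs. LPS, these shares were 21.6%, 24.7% and 14.1%, and in both comparisons together they were 9.3%, 7.03% and 7.34%. The pattern of all 6 AdipoAI arrays below all 6 others, met by Rpl13a and Nono, was met by 2.78% of all probes. Nothing is read from this share either, since the genes were chosen for low means in the AdipoAI groups.

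**Figure D2:**
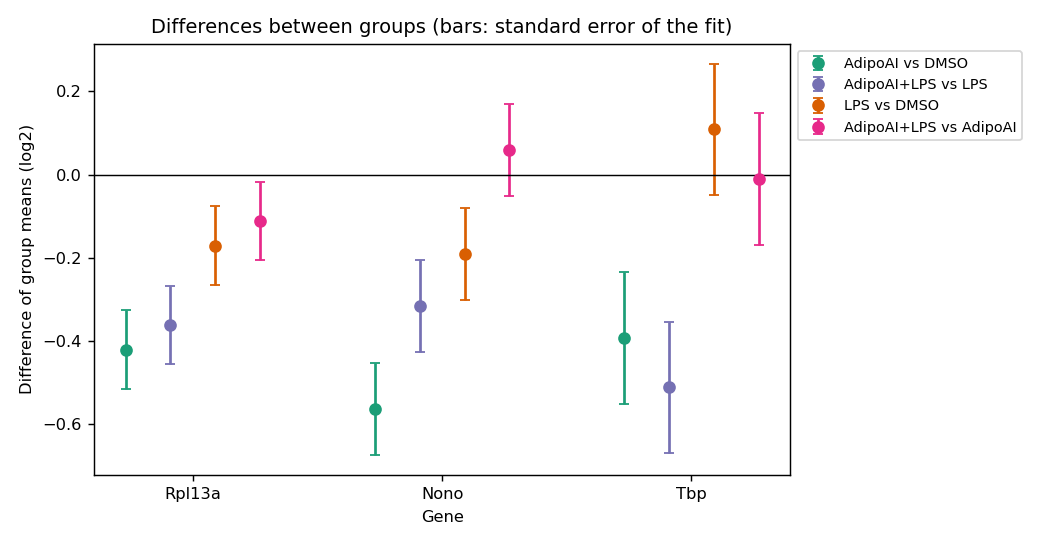
Difference between group means (log2) of Rpl13a, Nono and Tbp in 4 comparisons; points are the fitted differences and bars are ± 1 standard error of the fit over the 12 arrays. The AdipoAI differences run from −0.31 to −0.56, and those with LPS against without it from −0.19 to 0.11.

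The response to LPS was not used to choose the genes, so it was tested. Rpl13a, Nono and Tbp did not pass the test in LPS vs. DMSO, in which limma gave 38.5% of all probes an adjusted p under 0.05, 16.2% higher and 22.3% lower with LPS. That split, 5465 probes higher and 7504 lower, was 2749 and 9947 with scaling to Actb and Gapdh. Rpl13a differed by −0.17 on the log2 scale, with an interval from −0.38 to 0.04 at 95% confidence (limma, adjusted p = 0.185), although the 3 LPS arrays lay below the 3 DMSO arrays, as they did for 29.4% of all probes. Nono differed by −0.19, with an interval from −0.44 to 0.05 (limma, adjusted p = 0.206), and its groups overlapped. Tbp differed by 0.11, with an interval from −0.24 to 0.46 (limma, adjusted p = 0.636). For Rpl13a the call and the size depended on the processing: limma's adjusted p was 0.033 with normexp background correction and 0.046 with scaling to Actb and Gapdh, while with 75th percentile scaling the difference was −0.075 (limma, adjusted p = 0.674). For Nono the difference was −0.49 with scaling to Actb and Gapdh (limma, adjusted p = 0.0561) and −0.094 without LPS replicate 3, its lowest LPS array. With scaling to Actb and Gapdh the median of all probes was itself at −0.297. The intervals given above do not show that the 3 genes were unmoved by LPS.

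After AdipoAI, LPS gave 0 of 3 calls as well, where limma gave 32.3% of all probes an adjusted p under 0.05 in AdipoAI+LPS vs. AdipoAI, 13.3% higher and 19% lower. The difference was −0.11 for Rpl13a, with an interval from −0.32 to 0.10 (limma, adjusted p = 0.423). It was 0.06 for Nono, from −0.19 to 0.30 (limma, adjusted p = 0.742), and −0.01 for Tbp, from −0.36 to 0.34 (limma, adjusted p = 0.972). At an unadjusted p under 0.05 the count was also 0 of 3 in each LPS comparison, against 46.2% of all probes in LPS vs. DMSO and 41.3% in AdipoAI+LPS vs. AdipoAI. At the threshold of the study's methods, an unadjusted p under 0.05 with a log2 difference whose size is 1.5 or more, it was 0 of 3 too, against 9.79% of all probes in LPS vs. DMSO and 6.92% in AdipoAI+LPS vs. AdipoAI. The AdipoAI difference with LPS minus that without LPS was 0.06 (SE 0.13) for Rpl13a, 0.25 (SE 0.16) for Nono and −0.12 (SE 0.22) for Tbp on the log2 scale. It was not tested, because it is built from the differences that chose the genes.

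The 20 spots of each probe show how finely a single array was read. The SD of the log2 signal over the spots of 1 array had a median of 0.032 for Rpl13a, 0.032 for Nono and 0.041 for Tbp over the 12 arrays, and its highest value was 0.094, for Tbp. All 240 spots of each gene were well above background, and 6, 8 and 9 of them were left out as outliers for Rpl13a, Nono and Tbp. Before normalization the median spot signal lay between 18148 and 35589 for Rpl13a, between 3111 and 6990 for Nono and between 523 and 1286 for Tbp, against a background of 19 to 24. After normalization, all 55 AdipoAI spots of Rpl13a lay below every DMSO spot, as did all 60 of Nono and 48 of 58 of Tbp. In AdipoAI+LPS, all 59 spots of Rpl13a lay below every LPS spot, as did 50 of 56 of Nono and all 57 of Tbp. Spots of 1 array share its RNA and are no replicates of a treatment. The SD between arrays of a group reached 0.088 for Rpl13a, 0.17 for Nono and 0.31 for Tbp.

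The rule that chose the genes, a lower mean in both AdipoAI groups, was also met by 5 of the other 11 reference genes that passed the filter on low signals. The probe of Ldhal6b did not pass it. Among the 5, Gapdh, the glycolytic enzyme gene, lay nearest to the limit, with −0.02 for AdipoAI minus DMSO, which turned to 0.03 with 75th percentile scaling, and −0.06 for AdipoAI+LPS minus LPS. Ppia, the cyclophilin A gene, differed by −0.10 and −0.09, and Tuba1b, an α-tubulin gene, by −0.07 and −0.15, and both had no overlap between arrays in either comparison. B2m, the β2-microglobulin gene, differed by −0.18 with no overlap and by −0.07 with overlap, and Hsp90ab1, a cytosolic chaperone gene, by −0.06 and −0.10 with overlap in both. Outside the rule, Actb lay nearest to the limit, at 0.12 and −0.22, followed by Hprt, a purine salvage gene, at −0.10 and 0.16. The median difference of the other 11 genes was −0.02 in AdipoAI vs. DMSO and −0.07 in AdipoAI+LPS vs. LPS. For Rpl13a, Nono and Tbp it was −0.42 and −0.36. The gap between these medians carries no weight, since the same differences chose Rpl13a, Nono and Tbp. The rule itself does not separate them from the 5 others that met it. The scaling decided the small differences. Of the other 9 genes that are neither Actb nor Gapdh, 4 were lower in both comparisons as reported and with 75th percentile scaling. The count was 5 without normalization and 0 with scaling to Actb and Gapdh. Rpl13a, Nono and Tbp were lower in both under each of these, the property for which they were chosen. With scaling to Actb and Gapdh, AdipoAI+LPS minus LPS turned to 0.072 for Ppia and 0.0086 for Tuba1b.

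**Figure D3:**
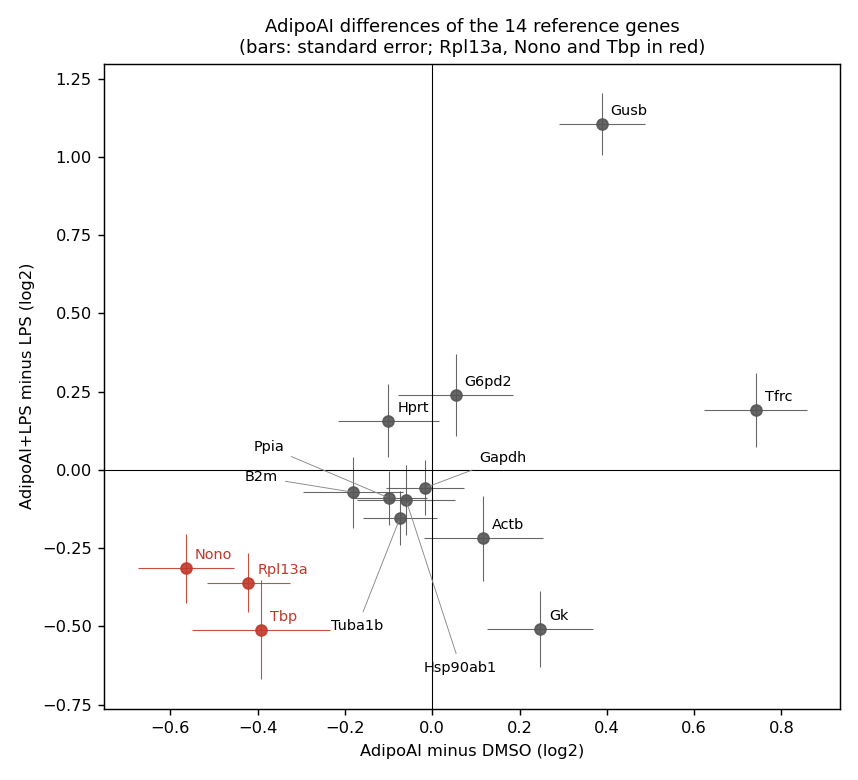
AdipoAI minus DMSO (x axis, log2) against AdipoAI+LPS minus LPS (y axis, log2) for the 14 reference genes that passed the filter; points are fitted differences and bars are ± 1 standard error. Nono, Rpl13a and Tbp (red) sit at the lower left, Gapdh and Ppia near 0, and Gusb and Tfrc at the upper right, where without normalization Tfrc turned to −0.041 on the y axis and with scaling to Actb and Gapdh Ppia turned to 0.072.

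Against single reference genes on the same array, the differences depended on which gene was the reference. Relative to Gapdh, the log2 ratio of Rpl13a differed by −0.40 in AdipoAI vs. DMSO and by −0.30 in AdipoAI+LPS vs. LPS. The ratio of Nono to Gapdh differed by −0.55 and −0.26, and that of Tbp by −0.38 and −0.45. These ratios were taken after normalization, where arrays of the groups did not overlap in any of them. Without normalization they overlapped for Tbp in both comparisons and for Nono in AdipoAI+LPS vs. LPS. On AdipoAI replicate 3, Tbp was then 9.33 and Gapdh 17.51, against 9.23 and 17.48 on DMSO replicate 3. On AdipoAI+LPS replicate 3, Tbp was 9.13, Nono 11.59 and Gapdh 17.15, against 9.50, 11.99 and 17.58 on LPS replicate 3. Relative to Actb, the β-actin gene, the ratios in AdipoAI vs. DMSO differed by −0.54 for Rpl13a, −0.68 for Nono and −0.51 for Tbp. They showed no overlap after normalization. Without normalization those of Tbp overlapped, as Tbp was 9.33 and Actb 15.36 on AdipoAI replicate 3, against 9.23 and 15.32 on DMSO replicate 3. In AdipoAI+LPS vs. LPS the Actb ratios after normalization differed by only −0.14, −0.096 and −0.29, and the arrays overlapped for all 3 genes. For Actb itself, LPS minus DMSO was 0.51 and AdipoAI+LPS minus LPS was −0.22. A ratio of this kind shows unequal levels of change and not which of the 2 genes moved.

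Of the other 11 reference genes, 8 passed the test in LPS vs. DMSO (limma, adjusted p under 0.05), with 4 higher and 4 lower, against 38.5% of all probes. The log2 difference was 0.51 for Actb, 0.51 for B2m, 1.52 for Gk and 0.56 for Tfrc among those higher, and −0.51 for G6pd2, −0.91 for Gusb, −0.39 for Hprt and −0.31 for Tuba1b among those lower. No direction among these 8 turned under another scaling, but with scaling to Actb and Gapdh 1 passed as higher and 4 as lower, and with 75th percentile scaling 4 and 2. In AdipoAI+LPS vs. AdipoAI, 2 passed the test as higher and 1 as lower, against 32.3% of all probes, and the lower one, Tuba1b, no longer passed with 75th percentile scaling (limma, adjusted p = 0.0623). The reference genes most like Rpl13a over the 12 arrays, by Pearson r, were Nono (0.87), Ppia (0.81) and Tbp (0.74). Those most like Nono were Rpl13a (0.87), Ppia (0.81) and Tbp (0.80), and those most like Tbp were Ppia (0.91), Nono (0.80) and Rpl13a (0.74). With the group means taken out, r was −0.07 between Rpl13a and Nono, 0.24 between Rpl13a and Tbp and 0.58 between Nono and Tbp. For Ppia it was then 0.05 with Rpl13a, 0.16 with Nono and 0.78 with Tbp, for which Gusb was as high, at 0.79. The highest r was then with B2m for Rpl13a, at 0.62, and with Hsp90ab1 for Nono, at 0.70. These correlations describe 12 arrays that share their normalization, and the first set holds the group differences that chose the genes.

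The scan moved in part with AdipoAI. AdipoAI replicate 3, the AdipoAI array of the second scan, was the highest of the 3 for each gene. With the scan as a block, which equals the values within the first scan, AdipoAI minus DMSO was −0.45 for Rpl13a, −0.59 for Nono and −0.41 for Tbp. AdipoAI+LPS and LPS arrays shared no scan, so scan and AdipoAI cannot be told apart in that comparison without AdipoAI replicate 3. The blocked values rest on that array alone. They were −0.46 (SE 0.17) for Rpl13a, −0.38 (SE 0.20) for Nono and −0.57 (SE 0.30) for Tbp. Within the second scan, AdipoAI+LPS minus that array was −0.18, 0.01 and −0.05. Across the other settings all 6 AdipoAI differences kept a negative sign, the property for which the genes were chosen. With scaling to the mean of Actb and Gapdh, AdipoAI+LPS minus LPS was −0.24 (SE 0.15) for Rpl13a, −0.12 (SE 0.18) for Nono and −0.31 (SE 0.25) for Tbp. The median of all probes was then at 0.179. With no normalization between arrays the 3 differences were −0.59, −0.47 and −0.67, when the median of all probes was itself at −0.175.

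**Figure D4:**
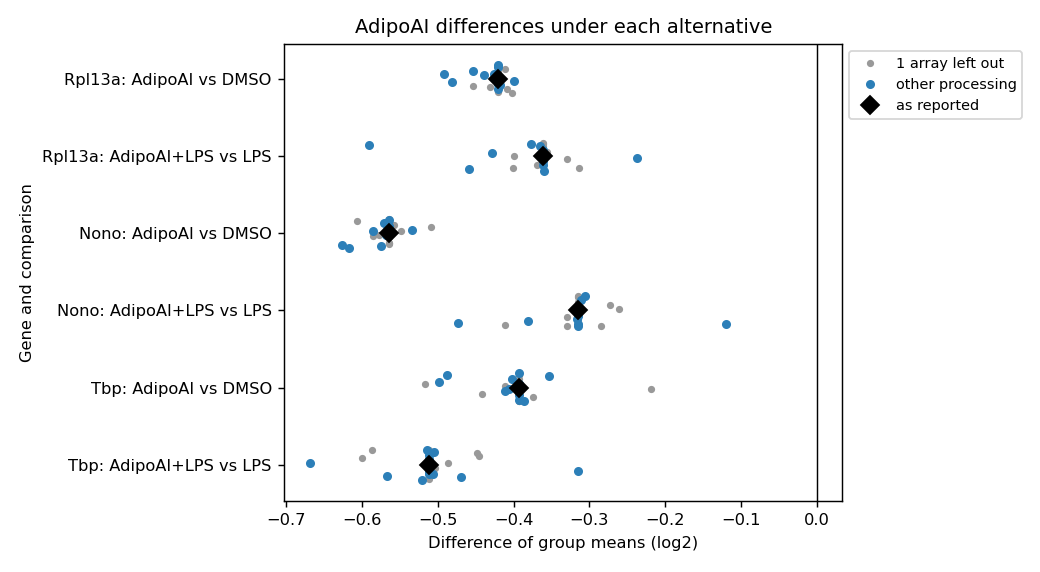
The 6 AdipoAI differences (x axis, difference of group means, log2) as reported (black), under other processing (blue) and with 1 array left out (grey). All points lie below 0, and those nearest to 0 are Nono in AdipoAI+LPS vs. LPS at −0.12, with scaling to Actb and Gapdh, and Tbp in AdipoAI vs. DMSO at −0.22, without DMSO replicate 1.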

How the data were processed

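The authors' deposited scanner files, made with Agilent Feature Extraction 11.0.1.1, hold for each of 62939 spots on 12 arrays a linear intensity, already background-subtracted, and flags. The authors' deposited series table holds their processed log2 values, and the methods name quantile normalization and a filter on low intensity. Its columns had a Pearson r of at least 0.992 with the values computed here, and it served as an alternative.

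The 3 genes and the lists were chosen with earlier results of these data known. Spots flagged as non-uniform or population outliers were left out of 20-spot means, control spots and probes named as negative were left out, and 221 single-spot probes with such a flag were dropped. Values were taken as log2 and quantile normalized. A probe entered the fit where 3 or more arrays had it well above background, and the 33692 such probes were fitted with limma 3.58.1 (R 4.3.3) in 1 model of 4 group means, with Benjamini-Hochberg adjustment over all of them, and the fit was tested on simulated data. LPS vs. DMSO and AdipoAI+LPS vs. AdipoAI were tested, while the comparisons of AdipoAI with DMSO and of AdipoAI+LPS with LPS, which chose the genes, were not. The number of arrays, 3 per group, limits the precision, and the median standard error of a log2 difference was 0.187. Probes were named only where the files give a RefSeq accession, and all 15 such probes matched a symbol. Named are the 3 genes and, of the other probes, only those with 20 spots and an accession, with the 3 of highest r to each gene called most like it. Promoters came from RefSeq, and all 3 genes matched. Alternatives covered normalization, scaling, background correction, the series table, filters, the variance model, the arrays in the fit, scan and replicate number as blocks, and each array left out. Keeping all 20 spots was an alternative chosen after seeing the data. Calculations also used Python 3.11.15, pandas 2.3.3 and matplotlib 3.10.9.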

Additional observations from a re-analysis of the deposited data

How the results depend on the processing

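Over all alternatives, 150 values of the 2 LPS comparisons were recomputed, of which 141 kept their direction and their side of the threshold, 2 newly passed it and 7 turned direction without passing it. Of 150 values of the AdipoAI comparisons, 142 moved by less than the spread between arrays, 8 moved further and 0 turned direction. In LPS vs. DMSO, Rpl13a was −0.40 with scaling to Actb and Gapdh and −0.18 with normexp background correction, both past the threshold. Tbp in LPS vs. DMSO was −0.043 without normalization, −0.28 with scaling to Actb and Gapdh and −0.016 without DMSO replicate 3. In AdipoAI+LPS vs. AdipoAI, Nono was −0.10 without normalization, and Tbp was 0.0080 without AdipoAI replicate 3, 0.053 without AdipoAI+LPS replicate 1 and 0.014 without AdipoAI+LPS replicate 2. In AdipoAI+LPS vs. LPS, Rpl13a was −0.43 with 75th percentile scaling, −0.59 without normalization, −0.24 with scaling to Actb and Gapdh and −0.46 with the scan as a block. Nono there was −0.47 without normalization and −0.12 with scaling to Actb and Gapdh, and Tbp was −0.31 with that scaling. Rpl13a in AdipoAI vs. DMSO was −0.49 without normalization. The causes were not tested.

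With 1 array left out in turn, Tbp ranged from −0.016 to 0.28 in LPS vs. DMSO, from −0.10 to 0.053 in AdipoAI+LPS vs. AdipoAI, from −0.52 to −0.22 in AdipoAI vs. DMSO and from −0.60 to −0.45 in AdipoAI+LPS vs. LPS. Rpl13a ranged from −0.45 to −0.40 in AdipoAI vs. DMSO and from −0.40 to −0.31 in AdipoAI+LPS vs. LPS, and Nono from −0.61 to −0.51 and from −0.41 to −0.26. In LPS vs. DMSO, Rpl13a ranged from −0.22 to −0.13 and Nono from −0.24 to −0.094. Over all alternatives, limma's adjusted p in LPS vs. DMSO ranged from 0.033 to 0.674 for Rpl13a, from 0.0561 to 0.581 for Nono and from 0.136 to 0.956 for Tbp. In AdipoAI+LPS vs. AdipoAI it ranged from 0.164 to 0.652 for Rpl13a, from 0.576 to 0.986 for Nono and from 0.558 to 0.987 for Tbp. Scaling to Actb and Gapdh moved the median of all probes to −0.30 in LPS vs. DMSO and to 0.18 in AdipoAI+LPS vs. LPS. The number of probes called in LPS vs. DMSO was 12969 by adjusted p and 3299 by the threshold of the methods.

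Replicates with the same number did not deviate together (r from −0.188 to 0.113 over 18 pairs, and from −0.326 to 0.338 over 36 pairs with different numbers). The numbers were therefore not used to pair samples. Such correlations cannot exclude that samples of the same number were handled together. With a replicate block the LPS vs. DMSO difference of Rpl13a stayed −0.17 (limma, adjusted p = 0.234), that of Nono −0.19 and that of Tbp 0.11, no call of the 3 genes changed, and 12200 probes were called.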
